A study of Mus musculus with 2 samples.

Results

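The Ifit family of mouse interferon-induced genes was followed across the cell classes of GL261 gliomas. Its 5 members were found by symbol among the 31053 genes of the count matrices: Ifit1 (ENSMUSG00000034459), Ifit1bl1 (ENSMUSG00000079339), Ifit2 (ENSMUSG00000045932), Ifit3 (ENSMUSG00000074896) and Ifit3b (ENSMUSG00000062488). All 5 had UMIs in both libraries. The study compared glioma-infiltrating cells of wild-type (WT) and CD169-DTR mice to learn what changes when CD169-positive macrophages are depleted. CD169-DTR mice were heterozygous for the allele Siglec1tm1(HBEGF)Mtka, in which the human diphtheria toxin receptor is expressed from the gene of CD169, so that the toxin kills CD169-expressing cells in any tissue of the mouse. Mice of both groups had the C57BL/6 background, were males of 8 to 12 weeks per the study's methods, received 100000 GL261 cells, a mouse glioma line, in the brain, and were given diphtheria toxin (40 ng per g) on days -1 and 4. At 10 days after injection, CD45.2-positive, propidium iodide-negative cells of 3 mice were pooled into 1 droplet library per group. With 1 library a group no test between WT and CD169-DTR could be made: every interval below is at 95% and covers counting error only, not the spread between mice.

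Ifit proteins are built from tetratricopeptide repeats and are found in the cytoplasm, where they bind RNA and restrict viral translation. Their genes are nearly silent in resting cells and are switched on by type I and type III interferons through the ISGF3 transcription factor complex, or directly by interferon regulatory factors after nucleic acid sensing. Interferon gamma (IFN-γ) induces several of them as well. Myeloid cells such as microglia and macrophages respond strongly to interferon, and the family is commonly used as a readout of that response.

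The 5 genes lie side by side on chromosome 19 (GRCm38, GENCODE M21), in the order Ifit2 (34550694–34576419, plus strand), Ifit3 (34583531–34588731, plus), Ifit1bl1 (34592891–34601956, minus), Ifit3b (34607970–34613401, plus) and Ifit1 (34640871–34650009, plus). Another gene of the cluster, Ifit1bl2 (ENSMUSG00000067297, 34617049–34640743, minus), stands between Ifit3b and Ifit1 and was not a member. The interferon-stimulated response element, the ISGF3 binding motif, was searched in the 250 bases before each start in the RefSeq promoter windows of GRCm38.p6, as GAAA, any 2 bases and GAAA again, on either strand. It was found in 4 of the 5 members, against 3.46% of 27025 genes with a window. Ifit1, Ifit3 and Ifit3b held 2 matches each, and 0.211% of genes held 2 or more in a window. Both windows of Ifit2 held no match of these letters. The segments are shown because they hold the motif that 4 of the 5 members share. Ifit1bl1 also held a match in its other window, in the segment chr19:34599431-34599460 on the minus strand, which is not shown. Capitals mark the motif, which reads TTTC, 2 bases and TTTC on the gene's own strand.
Ifit1, chr19:34640785-34640813, plus strand: TTTCACTTTCcagtctcagTTTCAGTTTC
Ifit3, chr19:34583363-34583392, plus strand: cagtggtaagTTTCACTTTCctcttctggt
Ifit3, chr19:34583397-34583426, plus strand: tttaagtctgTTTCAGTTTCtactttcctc
Ifit3b, chr19:34607759-34607788, plus strand: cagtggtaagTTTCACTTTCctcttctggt
Ifit3b, chr19:34607793-34607822, plus strand: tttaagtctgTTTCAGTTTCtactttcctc
Ifit1bl1, chr19:34602053-34602082, minus strand: actctgtaggTTTCATTTTCtgtaggttgg
The segments of Ifit3 and Ifit3b were identical over their 30 bases. The segment before Ifit1 lies between Ifit1 and Ifit1bl2, which point away from each other, and the same 2 matches fell in the window of Ifit1bl2 on the opposite strand. A match of letters is a description and was not tested as a binding site.

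The WT library held 101808996 UMIs (unique molecular identifiers, each counting 1 captured RNA molecule) and the CD169-DTR library 84065489. Barcodes with 1000 or more UMIs and at most 17% mitochondrial UMIs numbered 10107 and 7604, with medians of 7776 and 8100 UMIs, and 21 barcode sequences occurred in both libraries. Cells were clustered without the Ifit genes and other interferon-regulated genes, and classes were named from marker genes. These names are marker-based and are used below without the ending "-like". Microglia numbered 4808 and 5449 cells in WT and CD169-DTR, macrophages 2317 and 736, and dendritic cells (DCs) 1100 and 236. Lyz2 was the most abundant marker of the macrophages, and no gene of the microglial or macrophage list was at 0 in its class. Clusters with markers of endothelial cells (403 and 278) and of choroid plexus or ependyma (154 and 173) were present despite the sort for CD45.2. Of the macrophages, the WT cells were shallower, with a median of 7181 UMIs against 11945 in CD169-DTR, so levels are given per 1000000 UMIs of the class (CPM), and shares of cells after thinning each cell to 3000 UMIs. A 3′ UMI count does not grow with transcript length, so members were compared on the CPM scale without a length correction.

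Siglec1, the gene of CD169 and the target of the depletion, had 37.6 CPM (34.8–40.4) in macrophages of WT, against 11.5 (9.45–13.8) in those of CD169-DTR. In microglia its levels were 18.8 (17.6–20.2) and 5.64 (5.02–6.33) CPM. It was thus lower in CD169-DTR in both classes, by log2 ratios of WT over CD169-DTR of 1.71 (1.42–2.01) and 1.74 (1.54–1.93). The heterozygous CD169-DTR mice keep 1 untargeted copy of Siglec1, where WT mice have 2. How much of these ratios came from loss of CD169-expressing cells and how much from loss of transcript from the targeted allele was not tested.

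Among the 10 named classes with at least 20 cells in each library, the summed family level was highest in granulocytes and lowest in choroid plexus and ependymal cells. An unnamed cluster led by Acta2, of 24 and 22 cells, is left out of this order. In WT it was 6101 CPM (5910–6298) in granulocytes, 2307 (2286–2329) in macrophages, 1792 (1769–1815) in DCs, 1769 (1731–1807) in endothelial cells, 1222 (1189–1256) in T cells, 944 (934–953) in microglia, 659 (625–694) in NK cells and 105 (93.7–117) in choroid plexus and ependymal cells. DCs and endothelial cells did not differ beyond their counting error, nor did T cells and pericytes or fibroblasts (1175, 1095–1260), nor the latter and B cells (1053, 972–1138). In CD169-DTR granulocytes again stood first, at 1766 CPM (1680–1855), followed by endothelial cells at 1421 (1380–1463), DCs at 884 (853–915) and macrophages at 734 (717–751). Macrophages therefore moved from the second to the fourth place of 10 classes, and endothelial cells from the fourth to the second. Microglia had 564 CPM (557–570) in CD169-DTR, which their interval did not separate from that of T cells (580, 543–619).

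**Figure D1:**
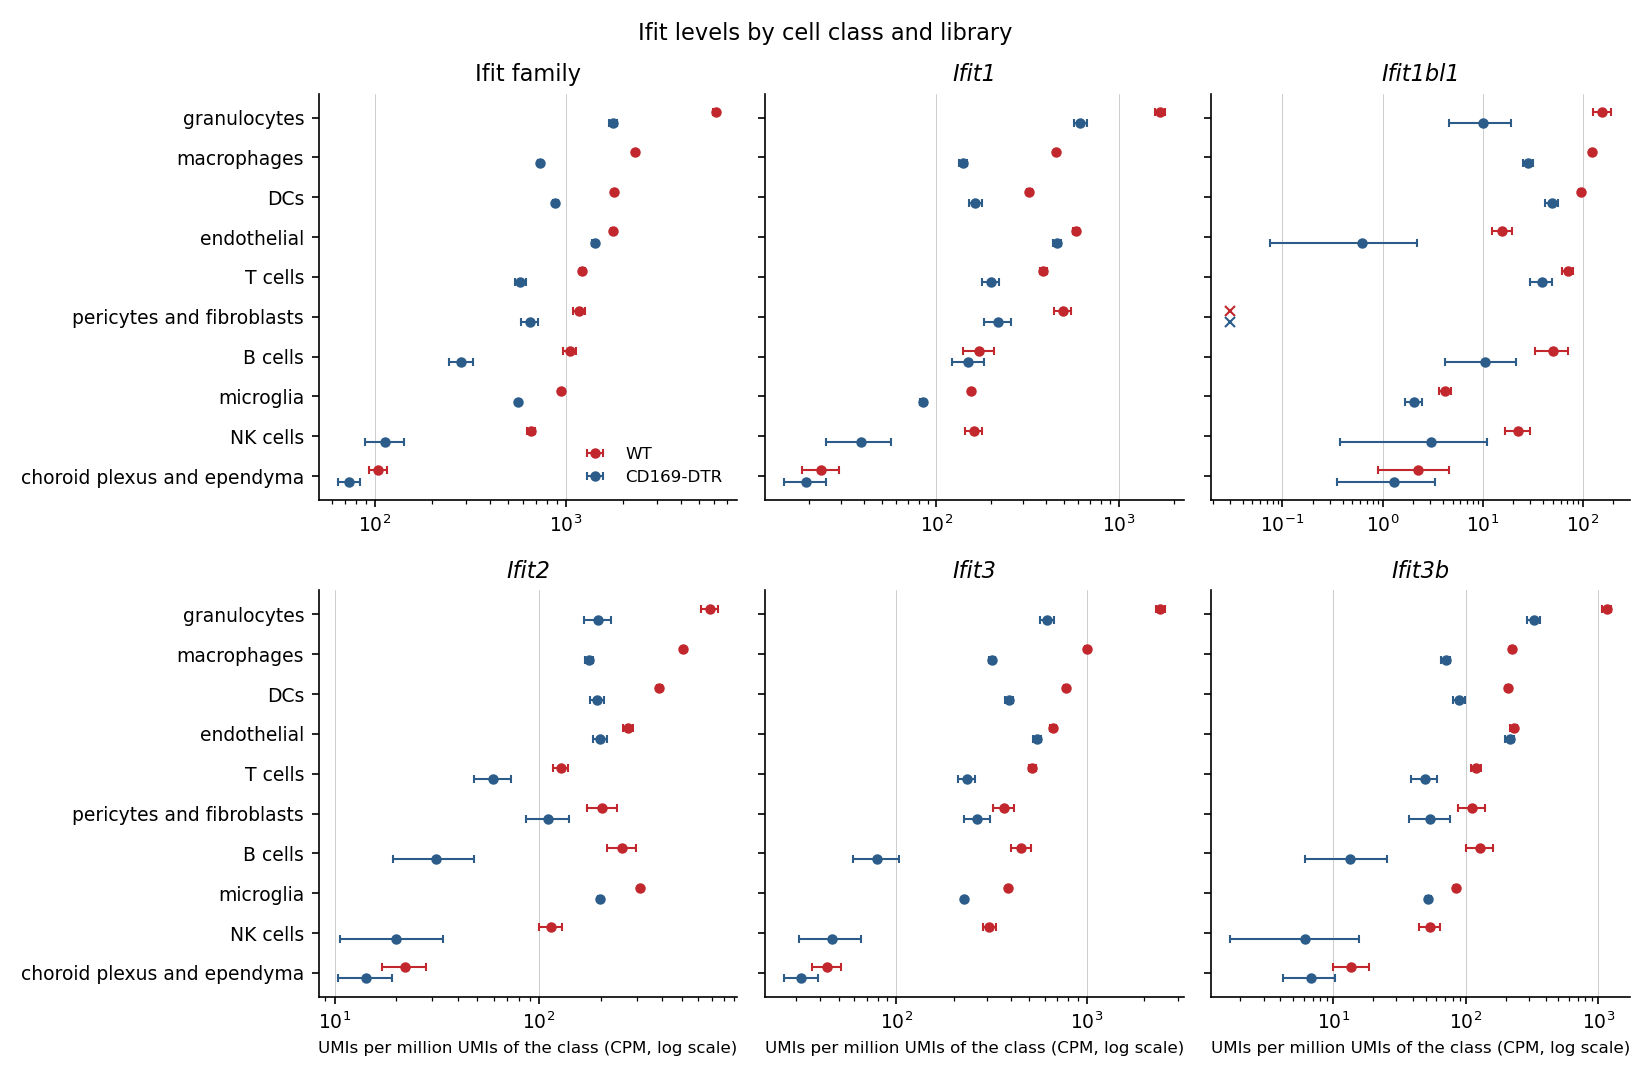
Level of the Ifit family (sum of 5 members) and of each member by cell class, as UMIs per 1000000 UMIs of the class on a log axis, in the WT (red) and CD169-DTR (blue) libraries. Points are 1 pooled library each, bars are 95% counting intervals and crosses at the left edge mark 0 UMIs. WT lies to the right of CD169-DTR in the family panel in all 10 named classes.

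The members differed in where they were high. Ifit1, whose protein binds RNA caps that lack the methyl mark of host mRNA, was highest in granulocytes (1679 CPM in WT and 616 in CD169-DTR) and next in endothelial cells (587 and 461). In macrophages it had 454 CPM (445–464) in WT and 140 (133–148) in CD169-DTR, and in microglia 156 (152–159) and 84.0 (81.6–86.6). Ifit1 thus stood higher in endothelial cells than in macrophages in both libraries.

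Ifit2, an RNA-binding member also linked to cell death, had 508 CPM (498–518) in WT macrophages, 387 (377–398) in WT DCs and 312 (307–317) in WT microglia. In CD169-DTR the levels were 176 (168–184), 192 (178–207) and 198 (194–201). It was the member with the smallest span between microglia and macrophages: macrophages over microglia gave 1.63-fold (1.58–1.67) in WT and 0.890-fold (0.845–0.937) in CD169-DTR, so the order of these classes was opposite in the libraries. T cells had 128 CPM (117–139) of Ifit2 in WT, against 386 (368–406) of Ifit1.

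Ifit3, which forms complexes with other Ifit proteins, was the most abundant member in WT in each of granulocytes (2428 CPM), macrophages (996), DCs (777), endothelial cells (664), T cells (518) and microglia (387). In CD169-DTR it had 619, 319, 390, 545, 234 and 228 CPM in the same classes. Its close paralog Ifit3b followed it at a lower level, with 224 CPM (217–231) in WT and 70.5 (65.3–76.0) in CD169-DTR macrophages. Granulocytes were again first for Ifit3b, at 1153 CPM in WT. Ifit3 and Ifit3b share sequence: of the 91-base words of the longest coding transcript of Ifit3, 34.7% also occur in a coding transcript of Ifit3b. Of those in the last 500 bases, where 3′ reads fall, 6.34% do. In the last 500 bases of Ifit3b 0% were shared with Ifit3. Reads in a shared stretch have no unique place, so the Ifit3 count may be too low, and the split of reads from farther inside the transcripts is uncertain.

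Ifit1bl1, an Ifit1-like gene, had the most uneven pattern. It had 125 CPM (120–130) in macrophages of WT, against 28.3 (25.04–31.8) in CD169-DTR, 96.2 (91.1–102) and 48.8 (41.9–56.5) in DCs, and 70.6 (62.7–79.1) and 38.9 (29.8–49.8) in T cells, yet 4.21 (3.62–4.87) and 2.05 (1.68–2.47) in microglia. Macrophages were 29.7-fold (25.5–34.7) above microglia in WT and 13.8-fold (11.01–17.4) in CD169-DTR, where the family sum was 2.45-fold (2.41–2.48) and 1.30-fold (1.27–1.34) above. The microglial levels of Ifit1bl1 overlapped those of choroid plexus and ependymal cells, at 2.23 (0.898–4.60) CPM in WT and 1.30 (0.353–3.32) in CD169-DTR. They are not shown to be above background, so the Ifit1bl1 folds are read as lower bounds only. In pericytes and fibroblasts it had 0 UMIs in both libraries, which allows up to 4.42 CPM in WT and 4.90 in CD169-DTR.

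The make-up of the family sum differed between classes. Ifit2 gave 33.1% (32.6–33.5) of family UMIs in WT microglia and 35.1% (34.5–35.6) in CD169-DTR microglia, but 22.01% (21.6–22.4) and 23.9% (22.97–24.96) in macrophages and 10.5% (9.65–11.3) and 10.3% (8.39–12.4) in T cells. Ifit1 gave 31.6% (30.3–32.9) of T cell and 33.2% (32.1–34.2) of endothelial family UMIs in WT, against 16.5% (16.1–16.9) in microglia. Ifit1bl1 gave 5.42% (5.21–5.64) in WT macrophages and 0.447% (0.384–0.516) in WT microglia. Ifit3b gave 18.9% (17.7–20.2) in WT granulocytes and 9.70% (9.42–9.98) in WT macrophages.

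**Figure D2:**
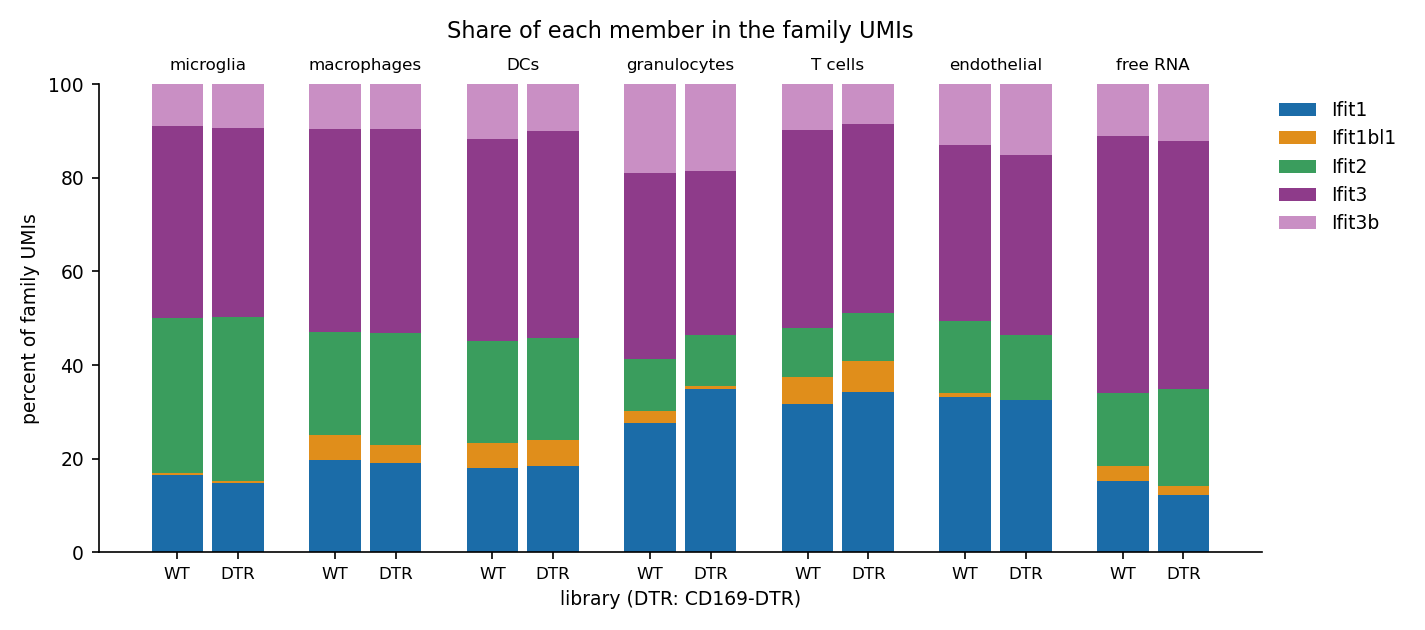
Share of each member in the family UMIs (percent, stacked to 100), by class and library, with barcodes of 10 to 100 UMIs (free RNA) at the right. DTR stands for CD169-DTR. In both libraries microglia hold the largest share of Ifit2 of the classes drawn, and T cells and endothelial cells hold more Ifit1 than microglia do.

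RNA outside cells also carried Ifit transcripts. Barcodes of 10 to 100 UMIs, far below the minimum set for a cell, had 1366 CPM (1329–1403) of the family in WT and 535 (510–562) in CD169-DTR, and Ifit3 made up 54.8% and 53.0% of it. From microglial markers in the lowest 80% of T, NK and B cells, a choice made after the data were seen, a droplet held about 128 free UMIs in WT and 87.2 in CD169-DTR, which amounts to 0.175 and 0.0467 family UMIs and would leave a family UMI in 16.0% and 4.56% of droplets before thinning. Choroid plexus and ependymal cells, which had the least of the family among these 10 classes, held a family UMI in 19.3% (13.2–26.7) of cells in WT, against 7.10% (3.72–12.1) in CD169-DTR, at 3000 UMIs, at median depths of 14550 and 12530 UMIs. Without thinning they held one in 43.5% and 24.9% of cells, above what the free RNA would leave, so their share is the lowest measured here and is not shown to be background. Shares at or below theirs are not read as expression.

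Shares of cells with a family UMI lay above those of choroid plexus and ependymal cells in the 3 main classes. At 3000 UMIs a cell, 79.6% (77.8–81.4) of 1980 WT macrophages and 48.5% (44.7–52.3) of 691 CD169-DTR macrophages held at least 1 family UMI. The shares were 77.0% (74.3–79.5) of 1056 and 53.0% (46.4–59.5) of 234 DCs, and 61.0% (59.5–62.4) of 4563 and 44.8% (43.5–46.2) of 5237 microglia. Thinning left out 337 and 45 shallower macrophages and 245 and 212 microglia. Without thinning, 88.1% and 67.0% of macrophages and 75.5% and 62.2% of microglia held a family UMI. By member, 70.7% of WT macrophages held Ifit3, 51.5% Ifit2, 47.6% Ifit1, 36.4% Ifit3b and 23.8% Ifit1bl1. In CD169-DTR macrophages the order was the same, at 38.5%, 25.2%, 21.4%, 13.7% and 8.25%. Ifit1bl1 was held by 1.18% (0.890–1.54) of WT and 0.535% (0.356–0.772) of CD169-DTR microglia, against 0% of 145 WT and 1.18% (0.144–4.21) of 169 CD169-DTR choroid plexus and ependymal cells, where 0 of 145 allows up to 2.07%. The intervals of microglia and of these cells overlapped.

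Within the 3 classes the family level varied by cluster. Among WT macrophages the cluster led by Chil3, Hp and F13a1, genes of young monocyte-derived cells, had 3443 CPM (3395–3492), the cluster led by Gpnmb and Ms4a7 had 2008 (1981–2036), the cluster led by Clec4e and Retnla 1426 (1380–1474), and the cluster led by Ear2 and Treml4, genes of patrolling monocytes, 340 (296–388). In CD169-DTR the same clusters had 1401, 599, 543 and 113 CPM. The order of these clusters by point value was the same in both libraries, although the intervals of the Gpnmb and Clec4e clusters overlapped in CD169-DTR. The Gpnmb cluster held 62.3% of WT and 53.1% of CD169-DTR macrophages, and its median depth was 5074 against 14765 UMIs. The Ear2 cluster, lowest in the family, held 4.01% of WT and 12.4% of CD169-DTR macrophages. Among DCs the Cd209a cluster had 2214 CPM in WT and 997 in CD169-DTR, the Ccr7 cluster 1227 and 1096, and the Xcr1 cluster 906 and 338. The Ccr7 cluster had 146 cells in WT but 15 in CD169-DTR, and at 3000 UMIs 63.8% (55.3–71.7) of 141 and 26.7% (7.79–55.1) of 15 held a family UMI, so its CD169-DTR level rests on few cells. Ifit1bl1 had 130 CPM (123–138) in the Cd209a cluster and 7.70 (4.93–11.5) in the Xcr1 cluster of WT. The Cd209a cluster also held 5 detected macrophage markers beside 7 of DCs.

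Microglial clusters spanned from 332 CPM (319–347) of the family in the cluster with the homeostatic genes P2ry12 and Gpr34, whose leading genes over all cells were those of hemoglobin, to 2293 (2187–2404) in the cluster led by Gm4951, Ccl12 and Iigp1 in WT. In CD169-DTR these ends were 215 (206–224) and 1704 (1595.5–1817). The cluster led by Cxcl13, C4b, Cst7 and Ifnb1 was next to the top, at 1607 (1581–1633) and 1082 (1062–1103) CPM, and its 906 and 937 cells held 14779 of 40755 and 11028 of 29457 microglial family UMIs. No microglial marker was among its 10 leading genes over all cells, which included the plasmacytoid DC marker Cox6a2. The family log2 ratio of WT over CD169-DTR lay between 0.43 and 0.89 in 8 of these clusters and was 1.55 (1.46–1.64) in the cluster led by Spp1, Cd5l and Igf1, which had 991 (962–1021) and 338 (320–357) CPM. Ifit1bl1 stayed at or below 7.01 CPM in all 9 microglial clusters of both libraries.

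**Figure D3:**
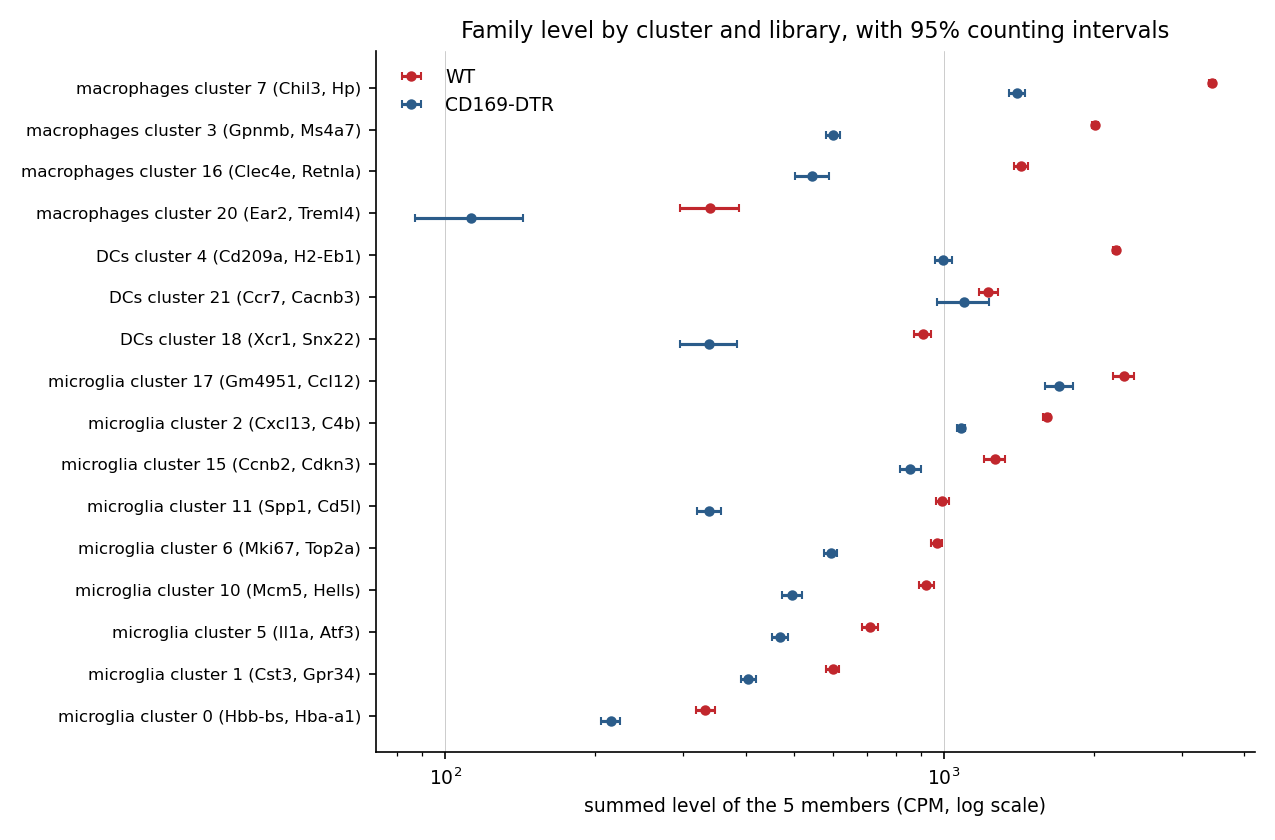
Summed level of the 5 members in each macrophage, DC and microglial cluster, as UMIs per 1000000 UMIs on a log axis, with the cluster number and its leading genes at the left. WT (red) is above CD169-DTR (blue) in all 16 clusters by point value, with the narrowest gap in the Ccr7 cluster of DCs (15 cells in CD169-DTR), and bars are 95% counting intervals of 1 library each.

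WT against CD169-DTR differed most in macrophages among the 3 main classes. On the log2 scale the family ratio, WT divided by CD169-DTR, was 1.65 (1.62–1.69) in macrophages, a 3.14-fold level (3.07–3.22), 1.02 (0.97–1.07) in DCs and 0.74 (0.72–0.77) in microglia, and these intervals did not overlap. The share of cells with a family UMI was higher in WT by 31.2 percentage points (27.0–35.3) in macrophages, 24.0 (17.2–30.8) in DCs and 16.1 (14.2–18.1) in microglia. In bulk sums of a class, fewer expressing cells and less RNA per cell cannot be told apart from the level alone. Here both the share and the level were lower in CD169-DTR. A share of cells with a UMI also falls with the level, so it does not separate fewer expressing cells from less RNA per cell. Genes on the marker lists of other classes differed between the libraries as well, some with these ratios and some against them. Whether a class makes genes of such a list itself was not tested. In macrophages the 5 erythroid genes, led by Hbb-bs, summed to 355 CPM in WT and 0.922 in CD169-DTR, with 0 and 2 genes at 0. The 12 DC markers, led by H2-Ab1, summed to 2588 and 1835 CPM there with none at 0, the 9 NK cell markers, led by Klrk1, to 58.0 and 12.5 with 0 and 3 at 0, and the 12 T cell markers, led by Trbc2, to 16.3 and 5.12 with 0 and 1 at 0. The microglial markers, at 2245 and 2685 CPM with none at 0, and the 8 markers of border-associated macrophages, led by F13a1, at 296 and 385 with 1 at 0 in each library, were lower in WT macrophages. In microglia the erythroid genes summed to 620 and 453 CPM and the 12 macrophage markers, led by Lyz2, to 1218 and 941, with none at 0 in either list. The 9 granulocyte markers, led by Csf3r, were lower in WT microglia, at 204 against 405 CPM, with 1 and 0 at 0. In DCs the NK cell markers summed to 221 CPM in WT and 133 in CD169-DTR, with 2 and 5 at 0, while the microglial markers were lower in WT, at 1415 against 2197, with none at 0. Ciita, on the DC list, is also on the list of genes induced mainly by IFN-γ read below, at 0.67 (0.43–0.92) in macrophages. The DC sum is thus not a measure of DC RNA alone. The part of these markers in the ratios was not tested.

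All 5 members were at a log2 ratio of 1 or more in macrophages, where 3.73% of 11758 genes with 20 or more UMIs were. Ifit1bl1 had the largest ratio, 2.15 (1.97–2.33), and Ifit2 the smallest, 1.53 (1.46–1.60), with Ifit1 at 1.70 (1.61–1.78), Ifit3 at 1.64 (1.59–1.70) and Ifit3b at 1.67 (1.55–1.78). The members' median was 1.67, against -0.04 over all genes. Intervals lay above 0 for all 5, as for 17.8% of all genes. In DCs 2 of 5 members, Ifit2 and Ifit3b, reached a log2 ratio of 1, where 3.09% of 11039 genes did. Their median was 0.99, against -0.03 over all genes, and the 5 intervals lay above 0, as for 12.2% of genes. In microglia 1 of 5, Ifit1bl1 at 1.04 (0.69–1.40), reached it, where 1.43% of 13753 genes did, from 182 and 107 UMIs. Its microglial share and level overlapped those of choroid plexus and ependymal cells, so this ratio is not read as a difference in expression. The median in microglia was 0.77, against -0.04 over all genes, with 5 of 5 intervals above 0, as for 10.6% of genes.

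**Figure D4:**
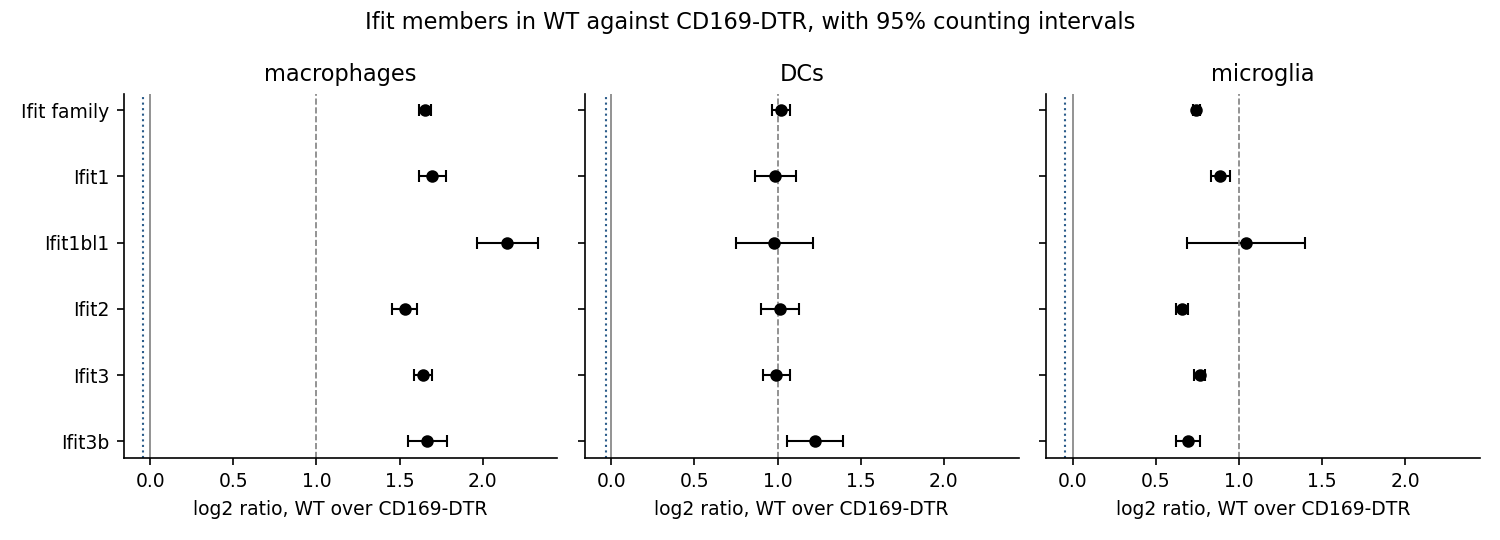
Log2 ratio of WT over CD169-DTR for the family and each member in macrophages, DCs and microglia, with 95% counting intervals (1 pooled library a group). The solid line marks 0, the dashed line 1 and the dotted line the median of all genes of the class. All points lie right of 0 and all macrophage points right of 1.

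The others of the 10 classes pointed the same way with different sizes. Plasmacytoid DCs, mast cells or basophils, and neural or GL261-like cells had too few cells and are left out. In plasmacytoid DCs (140 and 14 cells) the family log2 ratio was 0.43 (0.07–0.81). Their difference in the share with a family UMI, WT minus CD169-DTR, was -13.0 points (-37.4 to 11.7). Granulocytes had a family log2 ratio of 1.79 (1.70–1.87), from 3830 and 1590 UMIs in 167 and 194 cells, and T cells one of 1.08 (0.97–1.18). Endothelial cells had the smallest, 0.32 (0.26–0.37), and in the endothelial cluster led by Plvap and Igfbp3 it was 0.00 (-0.37 to 0.38). Of the 10 named classes with at least 20 cells in each library, the interval lay above 0 in 10 for the family sum, Ifit2 and Ifit3, in 9 for Ifit3b, in 8 for Ifit1 and in 8 for Ifit1bl1. Of 4428 genes measured in all 10 classes, 0.271% had an interval above 0 in each.

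Genes on the marker lists of other classes also moved with the values of these classes. Here too, whether a class makes genes of such a list itself was not tested. In B cells the family had 1053 CPM in WT and 283 in CD169-DTR, while the 10 microglial markers summed to 4316 and 3229 CPM and the 12 macrophage markers to 5392 and 1614 CPM, with none of the microglial and 0 and 2 of the macrophage markers at 0. Plac8 was the most abundant of the macrophage markers. At 3000 UMIs 1 of 111 CD169-DTR B cells held 36 of the 53 family UMIs, so that level rests mostly on that cell. With cells of over 5 UMIs of the complement genes C1qa, C1qb and C1qc left out, a choice made after the data were seen, the family log2 ratio was 1.81 (1.53–2.11) in B cells, 2.73 (2.34–3.16) in NK cells, 1.36 (1.25–1.48) in T cells, 1.93 (1.84–2.02) in granulocytes and 0.10 (0.04–0.17) in endothelial cells. In T cells the macrophage markers summed to 3391 CPM in WT and 1915 in CD169-DTR, with Vim the most abundant and none at 0, and the 12 DC markers to 937 and 290, with 0 and 2 at 0. In NK cells the macrophage markers summed to 2658 and 1618 CPM, led by Plac8 in WT and Vim in CD169-DTR, with 0 and 4 at 0. The DC markers summed to 450 and 132 there, with 1 and 6 at 0. The 9 markers of granulocytes themselves, led by S100a9, summed to 69240 and 121276 CPM in that class. Granulocytes also had 400 and 131 CPM of the DC markers, with 5 and 7 at 0, and 121 and 5.55 CPM of the NK cell markers, led by Gzma, with 2 and 6 at 0. In endothelial cells the DC markers, led by H2-Ab1, summed to 341 CPM in WT and 131 in CD169-DTR, with 0 and 4 at 0, and the NK cell markers to 89.1 and 2.16, with 1 and 6 at 0. In pericytes and fibroblasts the 8 endothelial markers, led by Itm2a, summed to 2971 and 1325 CPM, with none at 0. The erythroid genes summed to 395 and 1.63 there, with 1 and 4 at 0. The microglial markers, led by Sparc in both libraries, were lower in WT there, at 4719 against 6029. The Vtn cluster of this class had a family log2 ratio of 0.32 (0.10–0.53) and the Dcn cluster one of 1.34 (1.02–1.66). In choroid plexus and ependymal cells the 6 oligodendrocyte markers summed to 572 and 19.8 CPM, with 0 and 3 at 0, and the DC markers to 104 and 29.8, with 2 and 5 at 0. The microglial markers were lower in WT there, at 747 against 1409, with none at 0. The part of such markers in these levels, also in those of the cells that were kept, was not tested. With all cells the ratio was 1.89 (1.66–2.13) in B cells and 2.54 (2.20–2.90) in NK cells. Leaving the C1q-bearing cells out raised it in T cells and lowered it in endothelial cells beyond the counting intervals, while in B cells, NK cells and granulocytes the intervals with and without them overlapped. In those kept NK cells, 46.5% (40.3–52.8) of the WT library held a family UMI at 3000 UMIs, and 18.7% (10.6–29.3) of the CD169-DTR library, and in kept B cells 37.3% (25.04–50.9) and 8.08% (3.55–15.3). Of these shares, that of WT NK cells had an interval above that of choroid plexus and ependymal cells of its library, and the others overlapped it.

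Members were detected together more often than their separate shares would give. In WT macrophages 47.1% (44.9–49.3) of cells held 3 or more members at 3000 UMIs and 20.4% (18.6–22.2) held none, and in CD169-DTR macrophages 17.2% (14.5–20.2) and 51.5% (47.7–55.3). Among microglia 3 or more members were held by 17.4% (16.3–18.5) in WT, against 9.34% (8.56–10.2) in CD169-DTR. Ifit1 and Ifit2 occurred together in 714 WT macrophages where the product of their shares gives 486, a ratio of 1.47, and in 83 CD169-DTR macrophages where it gives 37.3, a ratio of 2.23. For Ifit3 and Ifit3b the ratios were 1.31 and 2.11. In microglia Ifit1 with Ifit2 had ratios of 1.83 in WT and 2.40 in CD169-DTR. A ratio of this kind has a lower ceiling where shares are high, so WT and CD169-DTR are given side by side only. Of the WT macrophages with Ifit1, 90.7% held Ifit3, 97.7% Isg15, a ubiquitin-like protein gene of the same response, and 71.4% the chemokine gene Cxcl10. In CD169-DTR the values were 79.7%, 90.5% and 41.2%.

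**Figure D5:**
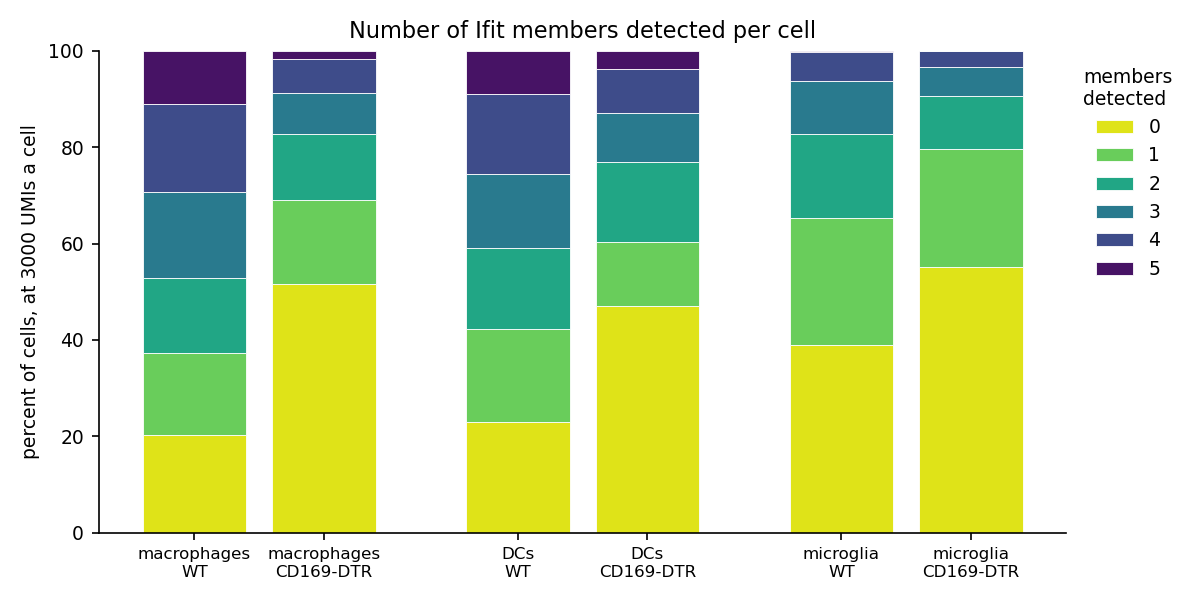
Percent of macrophages, DCs and microglia in which 0 to 5 Ifit members were detected after thinning to 3000 UMIs a cell, by library. In macrophages the cells without any member go from 20.4% in WT to 51.5% in CD169-DTR, and the cells with 5 members from 11.1% to 1.74%.

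The top 10% of cells held 37.0% of family UMIs among WT macrophages, against 59.0% among those of CD169-DTR, 38.7% and 50.2% in DCs, and 51.1% and 61.3% in microglia. The median WT macrophage held 4 family UMIs at 3000 and the median CD169-DTR macrophage 0, while the cells with most held 67 and 52. These shares depend on the level itself, which was 7.56 family UMIs a cell in WT and 2.64 in CD169-DTR macrophages at 3000, and how much of the gap that gives was not tested. Cells with many family UMIs were present in CD169-DTR, where 18.8% of macrophages held 5 or more family UMIs, against 48.9% in WT.

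Cells with a Siglec1 UMI had more of the family than cells without, after thinning to the same depth. In WT microglia the 612 cells with a Siglec1 UMI had 1614 family CPM and the 3951 without 771, a log2 ratio of 1.07 (1.01–1.13), and in CD169-DTR microglia 1022 and 506, a log2 ratio of 1.01 (0.90–1.12). In macrophages the log2 ratios were smaller, 0.37 (0.32–0.42) in WT and 0.71 (0.54–0.88) in CD169-DTR. WT macrophages with no Siglec1 UMI had 2355 family CPM, above the 1330 of CD169-DTR macrophages with one. The split used all UMIs of a cell, and the depth of its sides differed. Median depths of cells with and without a Siglec1 UMI were 10916 and 7164.5 UMIs in WT microglia, 12376.5 and 7690 in CD169-DTR microglia, 7488 and 7056.5 in WT macrophages and 16244 and 11378.5 in CD169-DTR macrophages. In DCs the cells with a Siglec1 UMI were the shallower ones, at 11024 against 11530 in WT and 9689 against 14605 in CD169-DTR. Their family log2 ratio was 0.60 (0.48–0.71) in WT, from 81 cells with a Siglec1 UMI, and 0.52 (0.05–0.96) in CD169-DTR, from 10. Of those 10 cells 50.0% (18.7–81.3) held a family UMI, against 53.1% (46.4–59.8) of the 224 without. There Ifit1 was at -0.40 (-2.30 to 1.00) and Ifit3b at -0.80 (-3.87 to 1.10), while the point values of Ifit1bl1, Ifit2 and Ifit3 were above 0. By member, the WT macrophage ratio was 0.67 (0.45–0.87) for Ifit1bl1 and 0.05 (-0.08 to 0.18) for Ifit1, whose interval spans 0. In CD169-DTR macrophages it was 0.56 (0.15–0.95) for Ifit1 and 0.80 (-0.04 to 1.56) for Ifit1bl1, and for Ifit3b it was 0.06 (-0.68 to 0.73).

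Around the family, the pathway was read from a list of genes by role. Of 8 interferon ligands, 2 had 20 or more UMIs in macrophages, and both had an interval below 0, as 21.2% of all genes had: Ifnb1, encoding interferon beta, had 69 UMIs in WT and 75 in CD169-DTR (log2 ratio -1.05, -1.55 to -0.56), and Ifng, encoding IFN-γ, 8 and 19 (-2.18, -3.58 to -0.92). Ifna1 had no UMI in macrophages of either library, and Ifna2 had 1 in WT. In microglia Ifnb1 was also lower in WT, at 26.8 against 33.4 CPM (-0.32, -0.42 to -0.21), as was Ifna2 with 38 and 71 UMIs (-0.63, -1.23 to -0.04), while Ifng had 46 and 10 UMIs. An interval below 0 was found for 22.3% of all genes in microglia. Of the 7 receptors and kinases, 4 had an interval above 0 in macrophages and 1 below, where 17.8% and 21.2% of all genes had such intervals. The receptor gene Ifnar1 was at 0.33 (0.21–0.44), Ifnar2 at -0.07 (-0.16 to 0.02), Ifngr1 at -0.37 (-0.45 to -0.30) and Ifngr2 at 0.26 (0.16–0.35).

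Transcription factors of the interferon response and nucleic acid sensors were mostly higher in WT macrophages. Of 8 transcription factors, 6 had an interval above 0 (17.8% of all genes in macrophages) and 2 a log2 ratio of 1 or more (3.73% of all genes). Irf7, the amplifier of type I interferon responses, was at 1.26 (1.22–1.30), whereas Irf8, a myeloid identity factor, was at -0.02 (-0.09 to 0.04) and Irf5 at 0.23 (0.15–0.31). Of 11 measured sensors and adaptors, 10 had an interval above 0, with the nucleic acid sensor genes Zbp1 at 1.18 (1.12–1.23), Ifih1 at 1.15 (1.03–1.27), Ddx58 at 1.12 (0.99–1.25) and Dhx58 at 0.84 (0.72–0.97). Of 7 negative regulators 5 had an interval above 0. Usp18, which removes Isg15 and blocks the receptor, was at 1.37 (1.28–1.47), against 0.17 (0.09–0.24) for Socs3, 0.21 (0.15–0.27) for Ptpn1 and 0.14 (0.07–0.21) for Ptpn6.

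Effectors co-induced with the Ifit genes had intervals above 0 for 24 of 26 measured genes in macrophages, against 17.8% of all genes, with a median log2 ratio of 1.05, below the 1.67 of the members. The most abundant were Ifitm3, a restriction factor in endosomes, at 0.83 (0.81–0.85), Ifi27l2a at 0.73 (0.70–0.75), Isg15 at 1.63 (1.59–1.66) and Bst2, which tethers virus particles, at 0.48 (0.45–0.51). For genes induced mainly by IFN-γ the count was 15 of 16, with a median of 1.08. The most abundant were the immunoproteasome genes Psmb8 at 0.41 (0.36–0.46) and Psmb9 at 0.65 (0.58–0.73), the peptide transporter gene Tap1 at 0.71 (0.63–0.79) and the GTPase gene Irgm1 at 1.10 (1.01–1.20). In microglia the medians of these lists were 0.50 and 0.56, and 25 of 26 and 15 of 16 had intervals above 0, against 10.6% of all genes. In DCs the medians were 0.56 and 0.79, with 23 of 26 and 14 of 16 intervals above 0, against 12.2% of all genes.

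The genes whose class pattern was most like that of the family sum were ranked by Pearson's r of log2(CPM + 10) over 20 sums, 10 classes in 2 libraries, among 12872 genes. These sums share libraries and classes and are not independent, so r is a description. Outside the family the first 10 were Irgm1 (0.97), Slfn5 (0.96), Oasl2 (0.95), Isg15 (0.94), Rtp4 (0.94), Irf9 (0.93), Gbp2 (0.93), Rsad2 (0.92), Cmpk2 (0.92) and Irf7 (0.90). Of the members, Ifit3 was at 0.99 and Ifit1bl1 at 0.60. Cxcl10 was at 0.85 and Siglec1 at 0.38.

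Ifit1bl2, the gene of the cluster outside the 5 members, had UMIs mainly in granulocytes, at 123 CPM (96.8–153) in WT and 45.5 (32.7–61.8) in CD169-DTR. In macrophages it had 11 and 3 UMIs, or 0.590 (0.295–1.06) and 0.307 (0.0634–0.898) CPM. A UMI of it was held at 3000 UMIs by 27.6% (18.0–39.1) of 76 WT granulocytes and by 0.202% (0.0551–0.516) of WT macrophages. Thinning left out 91 shallower WT granulocytes.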

How the data were processed

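The authors prepared droplet libraries with 3′ chemistry (10x Genomics, v3), pooled from 3 mice each, and deposited UMI counts per gene and barcode from Cell Ranger 3.1.0 (per the file headers) on mm10, for all barcodes and without normalization. From these counts, only barcodes of at least 1000 UMIs, of which mitochondrial genes gave 17% or less, were used. Libraries were integrated in Seurat 5.3.0 (R 4.3.3) on 50 dimensions with 2000 variable features, less a list of interferon-regulated genes, and clustered on 30 dimensions at resolution 1. A cluster was named from marker lists where at least 3 markers had 10 UMIs and 25% of their highest level, and these thresholds were set on earlier results. No doublets were removed: Scrublet (scanpy 1.11.5) called 299 of 10107 WT and 1 of 7604 CD169-DTR cells, so the caller did not work in the latter.

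UMIs were summed per class and library and scaled to 1000000 (CPM). Intervals are exact Poisson (CPM), Clopper-Pearson (shares), exact conditional (ratios) and Newcombe (differences of shares). Floors of 0 use 3 counts. No test was made. Genes with 20 or more UMIs entered counts over all genes. Named were the 5 members and any other Ifit gene, up to 4 genes of each pathway role with most UMIs in macrophages, and the 10 genes most like the family, also Siglec1, Isg15 and Cxcl10. The members and lists were chosen with earlier results of these data known. Statistics used scipy 1.17.1, numpy 2.4.6 and pandas 2.3.3 under Python 3.11.15, and figures matplotlib 3.10.9. Some genes of the lists are not reported here.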

Additional observations from a re-analysis of the deposited data

How the results depend on the processing

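Alternatives were run for the family log2 ratio in macrophages, microglia and DCs and for the share difference in macrophages and microglia, and none turned the direction of these. Beyond leaving out cells with C1q UMIs in 5 other classes, none was run for the other classes, the class order, co-detection or the Siglec1 split. The log2 ratio stayed between 1.51 and 1.71 over 11 alternatives in macrophages, between 0.64 and 0.80 over 12 in microglia and between 0.93 and 1.13 over 11 in DCs. Values outside the 95% counting interval of the reported value were as follows. With median-ratio scaling the log2 ratio was 1.71 in macrophages and 0.78 in microglia. With each cell at the same weight it was 1.51 in macrophages and 0.93 in DCs, and with each cluster at the same weight 1.535 in macrophages and 0.64 in microglia. In macrophages it was 1.60 with libraries merged without integration and 1.60 at cluster resolution 0.5. In DCs it was 1.13 with interferon-regulated genes kept in the features. In microglia it was 0.70 without the highest 6% of Scrublet scores. Among choices made after seeing the data, leaving out the microglial cluster with Cox6a2 gave 0.80, and leaving out cells of over 30000 UMIs gave 0.94 in DCs. The share difference without thinning was 21.1 points in macrophages and 13.3 in microglia, and 14.1 in microglia at 1500 UMIs a cell. This difference was not computed with each cluster at the same weight. Leaving out a library leaves nothing to compare, since each group has 1. No paired analysis was possible because each group has 1 library. The spread between mice is unknown, and depth limits Ifit1bl1 and Ifit1bl2 in microglia. The causes of these shifts were not tested.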
